A study of Rattus norvegicus with 6 samples.

Results

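Bbc3, Bax, Bak1, Bid, Bcl2, Bcl2l1, Bcl2l11, Mcl1 and Apaf1 are 9 genes of the mitochondrial route of apoptosis, the first 8 of them members of the Bcl2 family. They were chosen by name, and their probes were all those on the array whose RefSeq transcript belongs to 1 of these genes, 18 of 61657 probes. Of these, 16 probes of 8 genes passed a filter on dim probes and were tested among 43118 probes and 31915 genes. Only 12175 of the 31915 had a gene symbol. The others were array entries without a matched symbol, each counted here as a gene, and shares of all genes include them. Bcl2l11, read by 1 probe, did not pass. The tissue was renal cortex from 6 rats, all male and of the Sprague-Dawley stock, which were 5 weeks old when bought, and each animal had its own 1-colour Agilent array. The NDMA group (n = 3) received N-nitrosodimethylamine at 4 mg/kg/day for 4 weeks, and the water control group (n = 3) received water for the same time. NDMA is a nitrosamine that cytochromes oxidise to a compound that methylates DNA.

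In the mitochondrial route of apoptosis, BH3-only proteins such as PUMA (Bbc3), BIM (Bcl2l11) and BID bind the guardians BCL2, BCL-XL (Bcl2l1) and MCL1 or act on the effectors BAX and BAK. The effectors open pores in the outer mitochondrial membrane, cytochrome c leaves, and APAF1 assembles with it into the apoptosome, which activates caspase 9. Bbc3, Bax and Apaf1 are known targets of the transcription factor p53, which is activated by DNA damage. In the kidney, tubule cells are the cells best known to die by this route after toxic injury.

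The RefSeq promoter table (build GRCr8) held 7 of the 9 genes in 10 entries, with Bbc3 and Bax not among them. The 250 bases before the start are printed for Apaf1 and Bak1, the genes that came closest to the threshold after Bbc3, a choice made after their values were seen. Both are on the minus strand, at chr7:27466773-27467022 for Apaf1 and chr20:5110975-5111224 for Bak1, and capitals mark the GC box, GGGCGG on either strand.
Apaf1: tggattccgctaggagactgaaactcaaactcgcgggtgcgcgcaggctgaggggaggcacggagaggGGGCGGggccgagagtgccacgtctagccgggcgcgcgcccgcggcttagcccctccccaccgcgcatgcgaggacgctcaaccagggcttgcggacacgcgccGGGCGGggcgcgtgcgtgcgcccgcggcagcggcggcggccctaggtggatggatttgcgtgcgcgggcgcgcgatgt
Bak1: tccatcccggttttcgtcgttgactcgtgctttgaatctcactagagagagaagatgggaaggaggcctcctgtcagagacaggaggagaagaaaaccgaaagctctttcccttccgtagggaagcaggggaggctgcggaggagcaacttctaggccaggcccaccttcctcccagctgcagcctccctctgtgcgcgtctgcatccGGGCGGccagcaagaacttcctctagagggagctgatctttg
The GC box was found at 2 places for Apaf1 and at 1 for Bak1, and 30.5% of all 33469 windows of this length held it. The p53 half-site, searched on both strands, was in none of the 10 windows of these genes and in 6.64% of all windows. An E2F site, searched as TTTCGCGC or TTTGGCGC on both strands, was in 1 of the Bcl2l1 windows and in 0.636% of all windows. Such matches describe letters in a window, and a window without one says nothing of the factor.

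Between 43016 and 46248 probes per array were well above background. Slide 1 held the 3 control arrays and that of NDMA animal 1, while slide 2, scanned apart from it, held those of NDMA animals 2 and 3. Values are log2 processed intensities relative to the 75th percentile of the same array, so that 0 is the signal at that percentile, and values of different probes are not compared. The labelled tissue was checked on its markers, and 11 of 12 genes of tubule segments and podocytes were measured, and Slc12a1 had no probe matched by name. Lrp2, the endocytic receptor megalin of the proximal tubule, was the only one past the threshold, with a log2 difference of -0.57 ± 0.10 SE (adjusted p = 0.0448), a call kept in 4 of 16 alternatives and lost, among others, with quantile normalisation (adjusted p = 0.0658), without a filter on dim probes (0.125) and in the slide-blocked fit (-0.44, 0.363). Slc22a6 and Slc34a1, transporters of the proximal tubule, had differences of -0.37 and -0.26 without passing, and of -0.16 and -0.055 after quantile normalisation. The summed level of these markers, in multiples of the 75th percentile, was 1187 to 1259 in NDMA-treated rats and 1429 to 1560 in controls. This sum adds signals of different probes, so the brightest genes weigh most, and it was not recomputed after quantile normalisation.

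Of the 8 genes tested, Bbc3 was the only one past the threshold, an adjusted p of 0.05, and it was higher after NDMA, 2.07-fold. Below, rose and fell are said only of genes past this threshold. Its normalised log2 signal was 0.63, 1.12 and 0.97 in NDMA animals 1 to 3, against -0.24, -0.07 and -0.13 in control animals 1 to 3. The groups did not overlap, and every NDMA animal lay above every control by more than the spread within either group (0.49 and 0.18). The mean was 0.91 ± 0.25 in NDMA-treated rats and -0.14 ± 0.09 in controls (SD, n = 3 each). The log2 difference was 1.05 ± 0.14 SE with a 95% interval of 0.71 to 1.39 (limma, adjusted p = 0.0180 over 31915 genes). A single probe read Bbc3, so no second probe bears on this value.

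Among all genes 957 passed, 3.00%, with 805 higher (2.52%) and 152 lower (0.476%). Of the 8 genes tested here 1 was higher and 0 were lower, and with so few genes a share is not read against that background. With normexp background correction, added once the data had been seen, the split over all genes was 728 higher and 363 lower. The groups did not overlap, with NDMA above, in 11.1% of all genes and in 5 of these 8, namely Bbc3, Bax, Bak1, Apaf1 and Bcl2l1. They did not overlap with NDMA below in 16.5% of all genes and in 0 of the 8. In either direction 27.6% of all genes did not overlap. The median log2 difference was 0.18 over the 8 genes, against -0.05 over all genes. By probe, 1 of 16 passed, a higher one, where 2.99% of all probes passed and 2.50% were higher (0.485% lower). The groups did not overlap in 8 of 16 probes, all with NDMA above, where 26.9% of all probes did not overlap, 10.9% with NDMA above. Among these 8 are 3 probes of 1 Bcl2l1 transcript and 2 probes of 1 Apaf1 transcript, which are not independent readings.

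The Bbc3 value rested on few animals and on 2 slides. Against the control mean, NDMA animal 1, on the controls' slide, was higher by 0.77, and NDMA animals 2 and 3, on slide 2, were higher by 1.26 and 1.12. With the slide as a block, a fit that rests on animal 1, the difference was 0.77 ± 0.13 (adjusted p = 0.130), and within slide 1 alone it was the same size with an adjusted p of 0.167. In the 6 fits without 1 animal the difference ran from 0.95 to 1.19 and the call was kept in 1, that without NDMA animal 1 (adjusted p = 0.0183). The adjusted p was 0.0719, 0.0539 and 0.0593 without control 1, 2 and 3, and 0.0520 and 0.0725 without NDMA animals 2 and 3. The direction held in each of these fits.

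**Figure D1:**
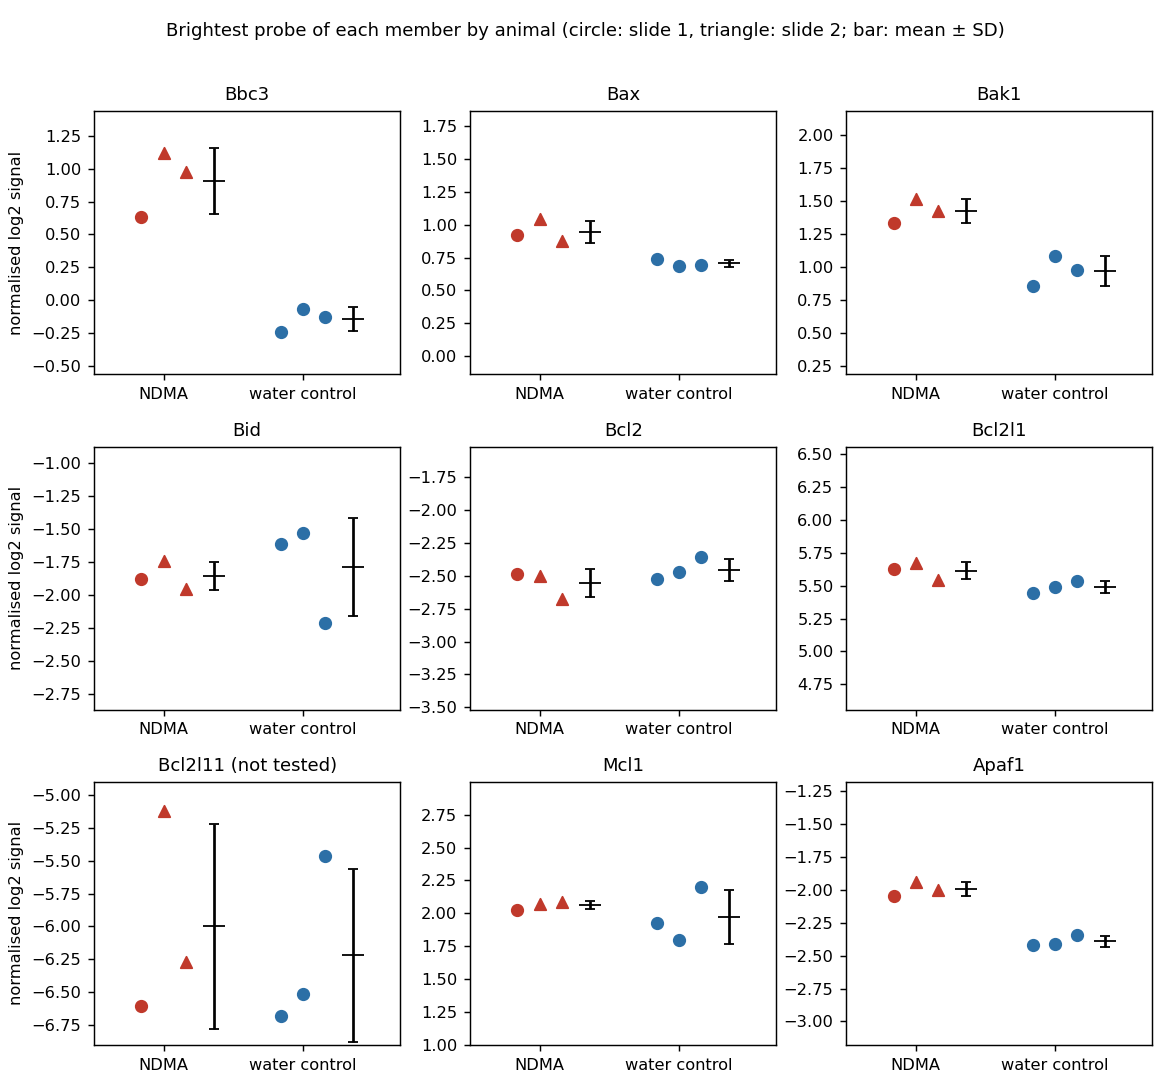
Normalised log2 signal of the brightest probe of each gene, NDMA left of water control, with 1 point per animal (circles slide 1, triangles slide 2) and bars for mean ± SD (n = 3 each). Each vertical axis has its own centre and spans the same number of log2 units. NDMA animals lie clear of the controls for Bbc3 (0.63 to 1.12 against -0.24 to -0.07), Bak1 and Apaf1, and overlap them for Bid, Bcl2 and Mcl1.

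Of the effectors, Bak1 came nearer to the threshold than Bax. Bak1, which encodes a pore-forming protein of the outer mitochondrial membrane, had signals of 1.34, 1.51 and 1.43 in NDMA animals, against 0.85, 1.08 and 0.98 in controls. The groups did not overlap, and the gap was larger than the spread within either. The log2 difference was 0.46 ± 0.10 with a 95% interval of 0.22 to 0.69 (1.37-fold, adjusted p = 0.0706). It passed with a trended and robust variance (adjusted p = 0.0310) and with normexp (0.44, adjusted p = 0.0457), and on slide 1 alone it was 0.37 (adjusted p = 0.467). Bax, the effector that moves from the cytosol to mitochondria, had signals of 0.92, 1.04 and 0.88 in NDMA animals, against 0.74, 0.68 and 0.70 in controls. The groups did not overlap either, but the difference of 0.24 ± 0.08 (95% interval 0.05 to 0.44, 1.18-fold) did not pass (adjusted p = 0.195).

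Apaf1, the scaffold of the apoptosome, was read by 2 probes of 1 transcript, and both had higher signals in every NDMA animal than in any control. The brighter probe stood at -2.05, -1.94 and -2.00 in NDMA animals, against -2.42, -2.41 and -2.34 in controls. Its log2 difference of 0.40 ± 0.08 (95% interval 0.21 to 0.58, 1.31-fold) missed the threshold, with an adjusted p of 0.0555. The other probe stood at -2.26, -1.72 and -2.21 in NDMA animals, against -2.86, -2.45 and -2.38 in controls, with a wider spread in both groups. It differed by 0.50 ± 0.19 (adjusted p over probes 0.244). As a gene, Apaf1 did not pass in any of the 16 alternatives, with values from 0.25 with normexp to 0.45 with the mean of both probes. On slide 1 alone it was 0.34, and the brighter probe by itself reached at most 0.42.

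The other BH3-only genes showed no difference beyond the spread between animals. Bid, which encodes the link from death receptors to mitochondria, had signals of -1.88, -1.74 and -1.95 in NDMA animals, against -1.61, -1.53 and -2.21 in controls. Control animal 3 was the lowest of all 6, the groups overlapped, and the difference was -0.07 ± 0.19 with a 95% interval of -0.53 to 0.39 (adjusted p = 0.863). Its sign turned without control 1 or 2, to 0.013 and 0.054. Bcl2l11 stood at -6.60, -5.12 and -6.27 in NDMA animals, against -6.68, -6.51 and -5.47 in controls. These signals were well above background on 2 NDMA arrays, those of animals 2 and 3, and on 0 control arrays, and the groups overlapped. No fold is given for Bcl2l11, and a difference was not detectable at this signal.

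The guardians of the mitochondrial membrane differed little. Bcl2 was read by 2 probes of 1 transcript. The brighter stood at -2.49, -2.50 and -2.67 in NDMA animals, against -2.52, -2.47 and -2.36 in controls, and the other ran from -3.99 to -3.84 in NDMA animals and from -3.87 to -3.68 in controls. The groups overlapped for both probes, and both differed by -0.10 ± 0.09. The brighter had a 95% interval of -0.33 to 0.13 (adjusted p = 0.591). Mcl1, a short-lived guardian, was read by 2 probes of 1 transcript, which differed by 0.09 ± 0.12 and 0.12 ± 0.10. The brighter stood at 2.03, 2.07 and 2.09 in NDMA animals, against 1.93, 1.80 and 2.20 in controls, so that control 3 was the highest of the 6. Its 95% interval was -0.20 to 0.37 (adjusted p = 0.721).

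Bcl2l1, which encodes BCL-XL, had 7 probes for 3 RefSeq transcripts, and their 6 tested differences were alike. These ran from 0.08 to 0.13, and 0 of them passed. The brightest probe stood at 5.63, 5.67 and 5.54 in NDMA animals, against 5.44, 5.49 and 5.53 in controls, and differed by 0.13 ± 0.08 (95% interval -0.07 to 0.32, adjusted p = 0.427). For the 3 probes of the first transcript the groups did not overlap, though only narrowly, and for the other 3 tested probes they did. The seventh probe was well above background on 3 arrays, those of NDMA animals 2 and 3 and control 1. It stood at -5.70, -5.46 and -5.73 in NDMA animals, against -4.08, -6.75 and -6.72 in controls, with control 1 apart from the other two, and was not tested.

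**Figure D2:**
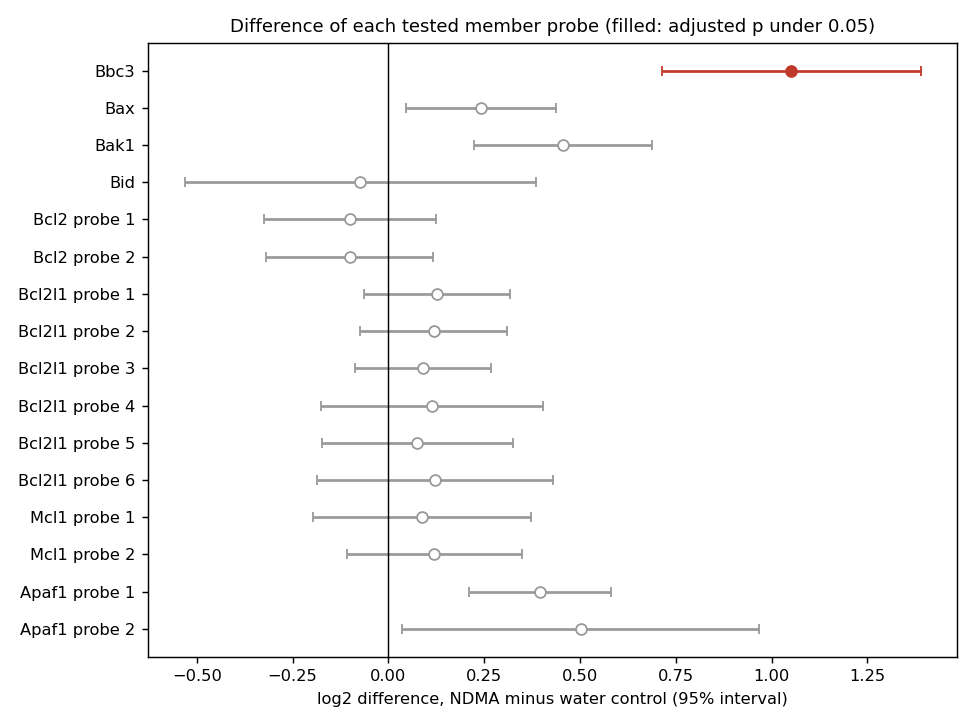
Log2 difference of each of the 16 tested probes, NDMA minus water control, with its 95% interval from limma (n = 3 each), probes of a gene in order of control signal. Bbc3 alone, at 1.05, is filled as past an adjusted p of 0.05. The intervals of Bak1, Bax and both Apaf1 probes lie above 0, and those of Bid, Bcl2, Bcl2l1 and Mcl1 include 0.

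The differences of Bbc3, Bak1, Apaf1 and Bax were compared across all alternatives. Bbc3 stayed between 0.77 and 1.19 and passed in 8 of 16, Bak1 stayed between 0.37 and 0.51 and passed in 2, and Bax stayed between 0.19 and 0.28 and passed in 0. The lowest values of Bbc3 and Bak1 were those with the slide as a block or on slide 1 alone.

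**Figure D3:**
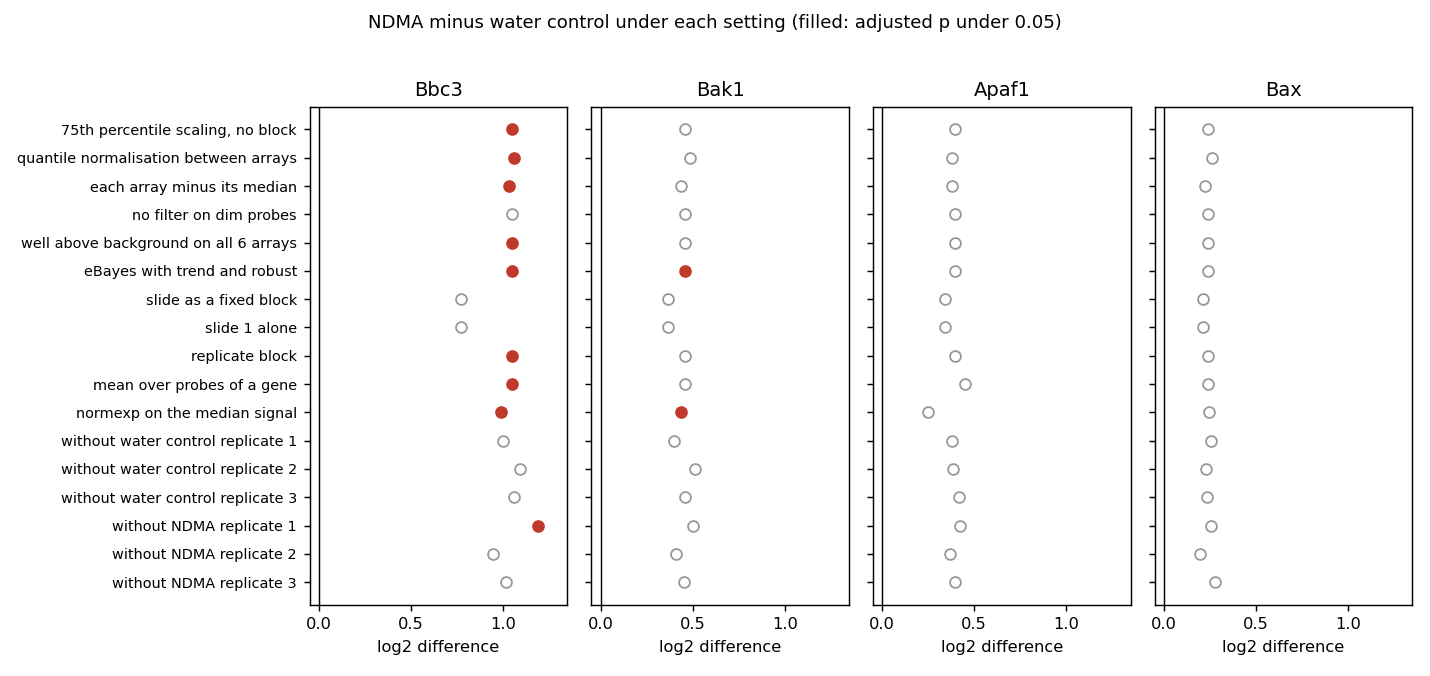
Log2 difference, NDMA minus water control, for Bbc3, Bak1, Apaf1 and Bax under the setting used here (top line) and the 16 alternatives, with filled points past an adjusted p of 0.05. All points lie right of 0, and Bbc3 drops to 0.77 with the slide as a block.

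Genes of other apoptosis steps were taken from 7 lists of 60 genes, of which 55 were tested. Of these, 2 rose and 0 fell, 3.64% against 3.00% of all genes, and the median log2 difference was 0.02. The groups did not overlap with NDMA above in 19 of 55, where 11.1% of all genes did so, and with NDMA below in 9, where 16.5% of all genes did so. The 2 that rose were Bcl2a1, a guardian of the Bcl2 family known mainly from blood cells, and Faslg, the ligand of the death receptor Fas, known from activated T cells and natural killer cells.

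Among the 13 tested further members of the Bcl2 family 1 rose and 0 fell. In 9 of 13 the difference was below 0, with a median of -0.18, where the median over all genes was -0.05. Bcl2a1 had signals of -2.23, -1.79 and -1.48 in NDMA animals, against -3.91, -3.27 and -4.19 in controls, without overlap. Its log2 difference was 1.96 ± 0.29 (3.88-fold, adjusted p = 0.0238), and 1.56 (adjusted p = 0.222) once slide was a block. The call was lost when control 1, control 3, NDMA animal 2 or NDMA animal 3 was left out (adjusted p from 0.0624 to 0.0934). Bmf, a BH3-only gene, had the next smallest p, with -2.17, -2.26 and -2.12 in NDMA animals, against -1.37, -1.77 and -1.78 in controls. It differed by -0.54 ± 0.13 and did not pass (adjusted p = 0.107). The 1 probe of Pmaip1, which encodes the BH3-only protein NOXA, did not pass the filter, and Bcl2l13 had no probe matched by name.

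Of 8 tested genes of death receptors, their ligands and their adaptors 1 rose and 0 fell. Their log2 differences had a median of 0.50, and in 6 of 8 the NDMA animals lay above the controls, as in 11.1% of all genes. The ligands Faslg, Tnf and Tnfsf10 differed by 1.19, 0.86 and 0.68, and the receptors Fas and Tnfrsf1a by 1.23 and 0.32. The adaptors Fadd, Tradd and Ripk1 differed by -0.30, 0.04 and 0.21. Faslg had signals of -2.43, -2.73 and -2.58 in NDMA animals, against -3.89, -3.40 and -4.04 in controls. It differed by 1.19 ± 0.18 (2.29-fold, adjusted p = 0.0266). With normexp the Faslg difference was 0.66 (adjusted p = 0.0257). On slide 1 alone Faslg differed by 1.34 (adjusted p = 0.238), and the call was lost in 5 of the 6 fits without 1 animal, all but that without control 2 (adjusted p from 0.0670 to 0.0971). Fas, the receptor itself and a known p53 target, had 3 tested probes that disagreed on the call. The brightest stood at -1.77, -0.79 and -1.24 in NDMA animals, against -2.37, -2.42 and -2.70 in controls, and differed by 1.23 ± 0.25 (adjusted p = 0.0614), but by 0.73 in the slide-blocked fit (adjusted p = 0.367). The others differed by 1.09 ± 0.18 (adjusted p over probes 0.0328) and 0.77 ± 0.31 (adjusted p over probes 0.259), both at low signal. The one that passed ran from -4.41 to -3.96 in NDMA animals, against -5.51 to -5.05 in controls. The last ran from -5.43 to -4.75 in NDMA animals, against -6.48 to -5.40 in controls, with overlap.

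Of 7 tested caspases, the proteases of apoptosis, 0 passed in limma, and the median was 0.19. Of 6 tested caspase inhibitors 0 passed, with a median of 0.10. Birc3, an inhibitor of apoptosis induced by NF-kappaB, differed by 1.02 ± 0.19 (2.03-fold) and missed the threshold by little (adjusted p = 0.0508). It passed in 4 of 16 alternatives: a trended and robust variance (adjusted p = 0.0233), normexp (0.0267), a stricter filter that asked for signal over background in all 6 animals (0.0466), and without control 2 (0.0490). Birc5, which encodes survivin and also acts in mitosis, differed by 0.67 ± 0.14 (adjusted p = 0.0641).

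The mitochondrial factors, the nuclear steps and p53 itself gave no call. Of 9 mitochondrial genes 0 passed and 7 had a difference below 0, with a median of -0.08. The median over all genes was also below 0, at -0.05. Cycs, which encodes cytochrome c, differed by -0.32 ± 0.10 (adjusted p = 0.157) and Endog, a mitochondrial nuclease, by 0.17 ± 0.08 (adjusted p = 0.291). Of 5 genes of the nuclear steps 0 passed, with a median of -0.06. Dnase2, the nuclease of lysosomes, differed by 0.35 ± 0.11 and Dffb, the caspase-activated DNase, by -0.15 ± 0.09. Of 7 genes of p53 control 0 passed, with a median of 0.04. Mdm2, the ubiquitin ligase of p53 and its target, differed by 0.41 ± 0.13 (adjusted p = 0.181), and Atm, a kinase that activates p53, by 0.28 ± 0.14. In the slide-blocked fit Mdm2 differed by 0.15 and Atm by 0.059, and Atm also by 0.017 with normexp and by 0.15 without NDMA animal 2. One array's spot for Mdm4, that of NDMA animal 1, was missing. Over the 55 genes of all lists, 14 had an unadjusted p under 0.05, as had 18.8% of all genes.

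**Figure D4:**
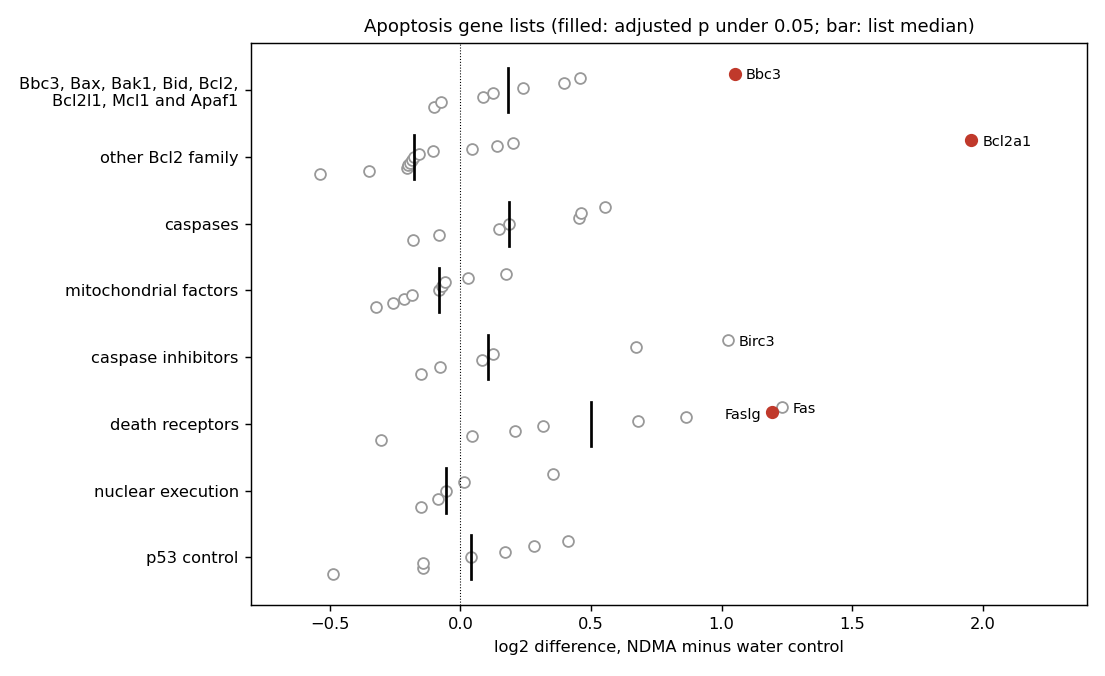
Log2 difference, NDMA minus water control, of each tested gene (points) by list, with the list median as a bar and genes past an adjusted p of 0.05 filled. Filled are Bbc3 at 1.05, Bcl2a1 at 1.96 and Faslg at 1.19, and the death receptor list, ligands and adaptors included, has the highest median, 0.50.

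Markers of leukocytes and of cycling cells moved with the same contrast. Of 16 measured leukocyte markers 12 rose and 0 fell, where 2.52% of all genes were higher and 0.476% lower. The log2 differences of the 16 ran from -0.08 to 2.51 with a median of 1.24. The summed level of these markers was 67.4 to 80.4 in NDMA-treated rats, against 28.4 to 35.0 in controls. The highest difference, that of Cd3e, is of a probe well above background on 3 NDMA arrays and 2 control arrays. It passed the filter through the NDMA group alone. Cd247 and Zap70, of T cell receptor signalling, and Cd68, of macrophages, rose 3.89-fold, 2.29-fold and 2.80-fold. The B cell gene Cd79b and the neutrophil genes S100a8 and S100a9 differed by -0.08, 0.03 and -0.01. Cd8a did not pass, at 0.93, and Cd79a and Ms4a1 had no probe matched by name. Of 8 measured cell cycle markers 8 rose, where 2.52% of all genes were higher, and Top2a and Mki67 had no probe matched by name. Those that rose included Cep55 (1.74), Ccnb2 (1.60) and Ube2c (1.60), which act in mitosis. The median was 1.46, and the summed level was 5.14 to 8.79 in NDMA-treated rats, against 2.16 to 2.69 in controls. Aurkb, at 1.83, was well above background on 3 NDMA arrays and 2 control arrays, so it too passed the filter through the NDMA group alone. Both sums weight the brightest probes most. The cell cycle sum is led by Cdk1, which differed by 1.32 (limma, adjusted p = 0.0466). In the slide-blocked fit the named markers differed by 1.83 for Cd247, 1.16 for Zap70, 1.32 for Cd68, 1.58 for Cep55, 1.49 for Ccnb2 and 1.37 for Ube2c, and all 6 lost the call (adjusted p from 0.0536 to 0.161). The part of leukocytes and cycling cells in the values of Bbc3, Bcl2a1, Faslg and Birc3 was not tested, and whole cortex was measured, so fewer or more cells of a type and more or less RNA per cell cannot be told apart.

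The genes whose profile over the 6 animals was most like that of Bbc3, by root mean square difference after subtraction of each gene's mean, were Fcgr2al1 (0.0593), Tacc3 (0.0640) and Cdt1 (0.0645), among 12168 genes with a symbol. Fcgr2al1 stood at 2.35, 2.69 and 2.60 in NDMA animals 1 to 3, against 1.37, 1.66 and 1.59 in controls 1 to 3. In it, as in Bbc3, NDMA animal 2 was the highest and control 1 the lowest. Tacc3, which acts at the mitotic spindle, and Cdt1, which licenses DNA replication, differed by 0.95 ± 0.14 and 1.07 ± 0.18. Both had NDMA animal 2 as the highest and control 1 as the lowest. All 3 genes were chosen for likeness to Bbc3 over these same 6 animals. The shared order of animals and the size of the differences thus follow largely from that choice and are no separate result. Cdt1 had low signals, -4.10, -3.45 and -3.77 in NDMA animals, against -5.00, -4.74 and -4.79 in controls. Fcgr2al1, Tacc3 and Cdt1 passed in 11, 7 and 8 of 16 alternatives. With normexp the Cdt1 difference was 0.42, and likeness to Bbc3 was not computed under other settings.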

How the data were processed

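Total RNA was labelled with Cy3, 1 array per animal, and groups came from the sample titles. The authors extracted intensities with Agilent Feature Extraction (version 10.7 in the submitters' processing notes, 10.7.1.1 in the headers). The authors' processed intensity had been background-subtracted and detrended within its array, per the file headers. The authors' deposited value table holds a ratio that matched processed intensity over the array's 75th percentile (largest log2 difference 0.00174 above 0.1). Its column medians ran from 0.112 to 0.115 for NDMA and from 0.110 to 0.113 for controls, and no centring was found.

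Processed intensities were taken to log2 minus the 75th percentile over 61657 non-control probes. Spots flagged as outliers were set missing (18 values). Probes well above background on all 3 arrays of a group were kept, and each gene was read by its brightest probe. Names came from RefSeq GRCr8 by accession (27460 probes), since the array's annotation names rn4. The test was limma's moderated test (version 3.58.1, R 4.3.3, with lmFit and eBayes, two-sided, Benjamini-Hochberg, threshold 0.05), over genes and, for single probes, over probes. An exact permutation test of 3 against 3 cannot go below 0.1, so none is given. The number of arrays limits the precision. The fit was tested on simulated data.

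The genes and lists were chosen with earlier results of these data known. Named were the 9 genes. In each apoptosis list the named genes are those that passed or, under 2, the 2 of smallest p, and in each marker list 3 of smallest p. Results of some genes that this rule names are not reported here. For each of the 9 genes that passed, the 3 most similar genes are named. Pmaip1, Bcl2l13, Mdm4, Slc12a1, Cd79b, S100a8, S100a9, Cd8a, Cd79a and Ms4a1 were named after their values were seen. So were Tnf, Tnfsf10, Tnfrsf1a, Fadd, Tradd, Ripk1, Cdk1, Cd3e, Aurkb, Top2a and Mki67. Each gene named by rule was recomputed with other scalings, background corrections, filters, variance models, blocks and left-out animals. Those named after their values were seen were not.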

Additional observations from a re-analysis of the deposited data

How the results depend on the processing

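With 3 animals a group on 2 slides, the Bbc3 call depends on the animals and the slide, and dim probes such as that of Bcl2l11 give no value. Of the genes described, calls came to 1 of 16 probes and 1 of 8 genes, with 2 calls among the other apoptosis genes, 1289 among all probes and 957 among all genes. Without a filter on dim probes these were 0, 0, 0, 488 and 371 in limma (4, 4 and 14 at an unadjusted p under 0.05 for the first counts), with more probes tested. With a trended and robust variance the first counts were 2, 2 and 7, and with normexp on the median signal, chosen after seeing the data, 2, 2 and 6. The median signal stood in for the mean signal, on which normexp was not run. With the slide as a fixed block they were 0, 0, 0, 82 and 67 in limma (unadjusted 3, 3 and 9), and on slide 1 alone 0, 0, 0, 0 and 0 (unadjusted 2, 2, 8, 4667 and 3502).

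The replicate numbers did not pair the animals: deviations from the group means of same-numbered animals correlated at 0.04, -0.05 and 0.03. With the replicate block, Bbc3 kept its call (1.05, adjusted p = 0.0448), while the other apoptosis genes had 0 calls in limma (15 at an unadjusted p under 0.05) and all probes and genes 511 and 351.

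Without 1 animal the counts ran from 0 to 1 probes, 0 to 1 genes, 0 to 3 other apoptosis genes, 464 to 987 probes and 364 to 749 genes in all. The sign turned for Bid (-0.29 to 0.054 without 1 animal, 0.013 without control 1 and 0.054 without control 2), for the brighter Mcl1 probe (-0.0017 to 0.20), and for 1 Bcl2l1 probe (-0.0018 to 0.13, and -0.012 with normexp). Of 128 values of the 8 genes under alternatives, 115 kept direction and side of the threshold, 8 lost the call, 2 gained it and 3 turned. Where no value shows it, the cause was not tested.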
